A study of Mus musculus with 10 samples.

Results

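Serine, one-carbon and proline stress synthesis was represented by 10 genes, chosen by name as enzymes and regulators of the amino acid branch of the stress response, of 55401 genes in the deposited tables. They were Phgdh, Psat1 and Psph of serine synthesis, Shmt2 and Mthfd2 of the mitochondrial one-carbon pathway, Aldh18a1 and Pycr1 of proline synthesis, Asns of asparagine synthesis, the transcription factor gene Atf5 and the hormone gene Fgf21. RNA of the left ventricle (LV) was sequenced in 5 nAAC and 5 sham mice, all of WT genotype and 4 weeks of age, with 1 library per mouse. In nAAC mice the ascending aorta had been constricted surgically in the first day of life, which loads the LV with pressure, and sham mice had the operation without constriction. All pups were kept with their mothers and nursed. The comparison asked which transcripts of the young LV differed under chronic pressure overload. The samples were whole LV tissue, so a change in the share of a cell type and a change in RNA per cell cannot be told apart.

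Serine is built from a glycolytic intermediate by the enzymes PHGDH, PSAT1 and PSPH in turn. In mitochondria SHMT2 splits serine into glycine and a one-carbon unit carried on folate, and MTHFD2 oxidizes that unit on its way to formate, which the cytosol uses for purine synthesis. ALDH18A1 reduces glutamate to the precursor of proline, PYCR1 completes proline, and ASNS makes asparagine from aspartate and glutamine. When the integrated stress response is active, as in mitochondrial stress or amino acid shortage, the transcription factor ATF4 is translated and raises transcription of many of these genes through composite C/EBP-ATF elements. ATF5 is a related factor linked to mitochondrial stress, and FGF21 is a secreted hormone of the same response that acts through FGF receptors with the co-receptor KLB. MTHFD2 is best known from embryonic and dividing cells, and most differentiated adult tissues hold little of it.

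The letters TGATGNAA, the core of C/EBP-ATF elements, were searched on both strands of RefSeq promoters of build GRCm38.p6, each of 300 bases from 250 before to 50 after a gene start. No other motif was searched. All 10 genes had promoters in that table, 12 in all, and 3 of the 12 held a match, beside 3.97% of 32851 promoters of all genes. The 3 promoters are shown because they are those of the set that hold a match, and the 250 bases before the start are printed 5′ to 3′ on the gene's strand, with the match in capitals. The Asns match began 23 bases before the RefSeq start and the Pycr1 match 103 bases before it. The Fgf21 match lay on the opposite strand, 139 bases before the RefSeq start. In the coordinates deposited with the expression values Asns starts further upstream, at chr6:7693254, so its match lies inside the gene by that annotation. Asns lies at chr6:7693210-7693459, Pycr1 at chr11:120643749-120643998 and Fgf21 at chr7:45615491-45615740 in the printed stretch, all on the minus strand.
Asns: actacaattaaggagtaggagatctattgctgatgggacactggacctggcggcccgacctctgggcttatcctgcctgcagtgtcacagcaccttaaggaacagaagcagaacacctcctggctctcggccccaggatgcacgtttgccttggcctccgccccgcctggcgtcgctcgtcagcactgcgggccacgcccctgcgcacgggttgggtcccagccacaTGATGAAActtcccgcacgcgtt
Pycr1: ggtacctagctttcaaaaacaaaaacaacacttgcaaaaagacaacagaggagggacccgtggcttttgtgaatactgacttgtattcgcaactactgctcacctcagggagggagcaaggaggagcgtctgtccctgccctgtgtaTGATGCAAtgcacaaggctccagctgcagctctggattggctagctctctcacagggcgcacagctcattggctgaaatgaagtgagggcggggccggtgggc
Fgf21: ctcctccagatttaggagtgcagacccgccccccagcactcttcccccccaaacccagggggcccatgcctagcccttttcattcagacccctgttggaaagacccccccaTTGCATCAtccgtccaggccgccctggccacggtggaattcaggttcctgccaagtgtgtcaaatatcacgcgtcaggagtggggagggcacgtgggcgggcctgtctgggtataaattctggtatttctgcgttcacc
A match of these letters is a description of the sequence and does not show that a factor binds there.

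Values are FPKM, which count fragments per unit of transcript length and per unit of sequenced depth, so levels are per length. The estimated depth was 4.86 to 6.82 gigabases for nAAC libraries and 5.06 to 5.24 for sham libraries. Fragment numbers were unknown, and the error of each value is therefore the spread between mice. The 11867 genes whose FPKM averaged 1 or more over the mice were compared on log2(FPKM + 1) by limma with Benjamini-Hochberg adjustment over all of them. Because of the added 1, low genes show a smaller log2 FC than their ratio of means. A gene was called higher or lower at an adjusted p below 0.05 and a DEG when its absolute log2 FC was also above 1. Over all genes tested the log2 FC had a median of 0.22, and after median-ratio scaling, which centers each library on its typical gene, it was near 0. Log2 FCs of the set, except Fgf21, and counts of each pathway list are therefore also given on that second scale. The number of genes at an FPKM of 1 or more was 11889 to 12455 in nAAC and 11182 to 11721 in sham mice, without overlap, and mitochondrial genes held a median of 36.1% of the TPM (32.8% to 39.9%) and 46.5% (33.7% to 49.8%), in that order. In a principal component analysis sham replicate 4 stood apart from the other libraries on the second component (-45.2, against -15.1 to 21.1), and Xist exceeded an FPKM of 1 in 4 nAAC mice and 2 sham mice.

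Of the 7 genes of the set that passed the filter on low values, 5 were higher in nAAC mice and none was lower, beside 27.1% of all genes tested higher and 4.6% lower. The 5 were Mthfd2, Atf5, Aldh18a1, Asns and Psat1, and 3 of them, Mthfd2, Atf5 and Aldh18a1, were DEGs, beside 5.01% of all genes in that direction and 0.893% in the other. Shmt2 and Psph did not pass the test. Asns and Mthfd2 had sham means below an FPKM of 1 and passed the filter only through their nAAC values. Phgdh, Pycr1 and Fgf21 fell below the filter. All nAAC mice lay above all sham mice for 7 of the 10, which are the 5 genes called and Phgdh and Pycr1, beside 10.3% of the 29309 genes with any value above 0, and for none did they all lie below, beside 1.97%. After median-ratio scaling the same 5 genes were called higher, beside 13.2% of all genes, and the DEGs were Mthfd2 and Atf5, beside 3.13% of all genes. With a pseudocount of 0.1 in place of 1 Asns joined Mthfd2, Atf5 and Aldh18a1 as a DEG, 4 in all, beside 8.02% of all genes. The genes were chosen with earlier results of these data known and were measured in the same mice. These counts therefore describe the set and are not a test of it.

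**Figure D1:**
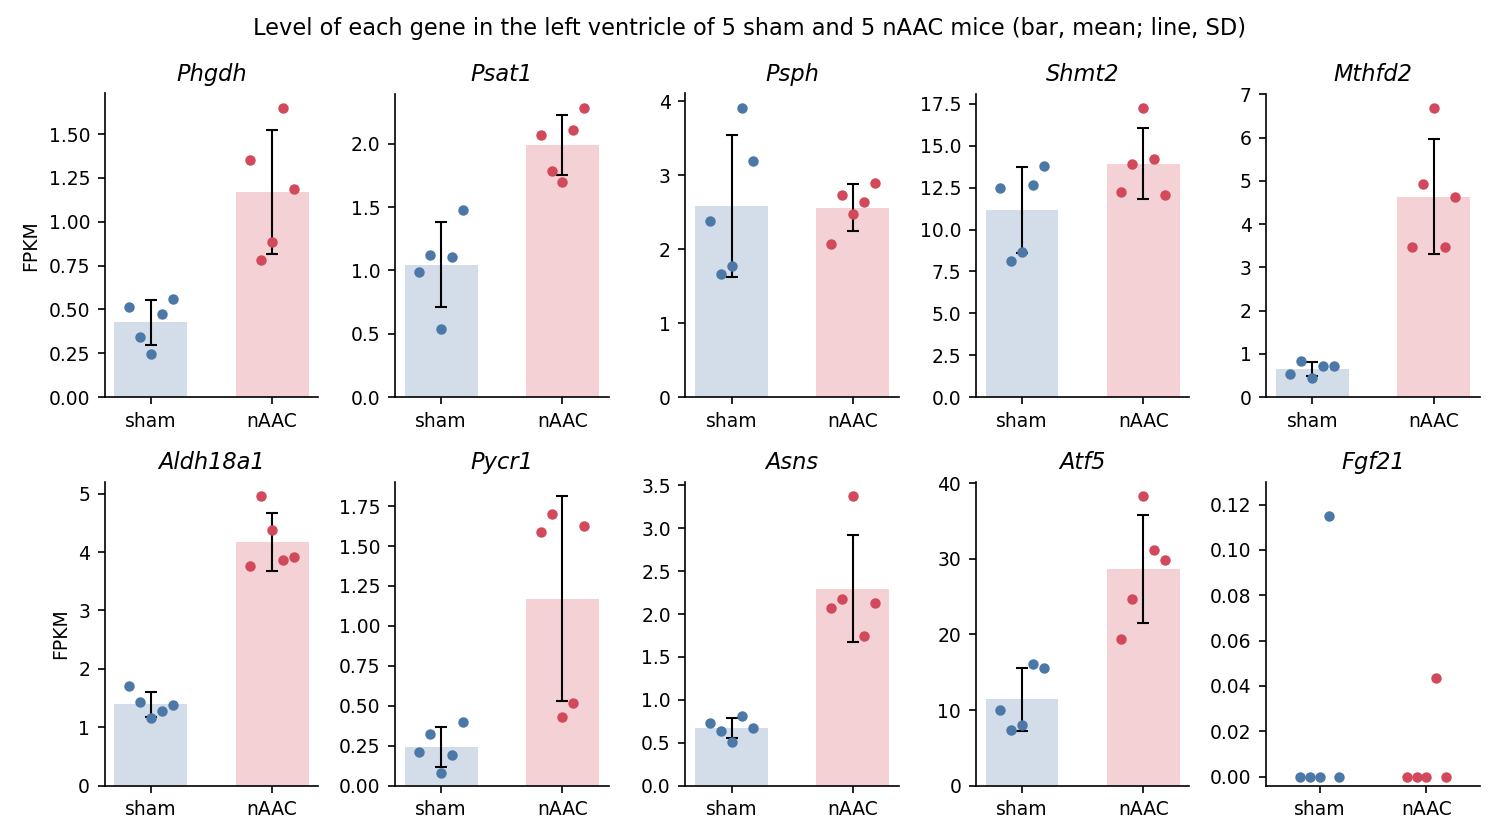
FPKM of each of the 10 genes in the LV of 5 sham and 5 nAAC mice. Each point is a mouse, bars are group means and lines the SD, except for Fgf21, where only the mice are drawn. The groups do not overlap for Phgdh, Psat1, Mthfd2, Aldh18a1, Pycr1, Asns and Atf5.

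The enzymes of serine synthesis differed among themselves. Phgdh (ENSMUSG00000053398, GRCm38 chr3:98313170-98339990, minus strand), the first and committed step, had an FPKM of 1.35, 0.784, 0.884, 1.65 and 1.18 in nAAC replicates 1 to 5 and of 0.512, 0.342, 0.247, 0.475 and 0.558 in sham replicates 1 to 5. The lowest nAAC mouse was above the highest sham mouse, with group means of 1.17 ± 0.351 (SD, n = 5) and 0.427 ± 0.129 (SD, n = 5), a ratio of means of 2.74. A two-sided exact permutation test gave p = 0.00794, the smallest that 5 against 5 mice allow. Read coverage was low, from 0.987 to 2.15 reads per base in sham mice, and Phgdh was not part of the main test. In a fit with no filter its log2 FC was 0.60 (SE 0.12, adjusted p = 0.00966 from limma), where 11.6% of genes were higher. After median-ratio scaling the difference of its group means of log2(FPKM + 1) was 0.48.

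Psat1 (ENSMUSG00000024640, GRCm38 chr19:15904678-15947337, minus strand), the transaminase of the second step, had an FPKM of 2.07, 1.79, 1.70, 2.11 and 2.28 in nAAC mice and of 0.986, 1.12, 0.540, 1.10 and 1.48 in sham mice. The groups did not overlap, although sham replicate 5 came near the lowest nAAC mouse. Psat1 was higher by a log2 FC of 0.56 (SE 0.13, adjusted p = 0.00542 from limma), with means of 1.99 ± 0.240 and 1.05 ± 0.338 (SD, n = 5 each). After median-ratio scaling the log2 FC was 0.40 (adjusted p = 0.0247). With Xist as a covariate it was 0.42 and no longer passed (adjusted p = 0.0699).

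Psph (ENSMUSG00000029446, GRCm38 chr5:129765558-129787449, minus strand), the phosphatase of the last step, had an FPKM of 2.07, 2.73, 2.48, 2.64 and 2.90 in nAAC mice and of 2.39, 1.66, 1.78, 3.91 and 3.19 in sham mice. The sham mice spread on both sides of all nAAC mice. The log2 FC was 0.03 (SE 0.16, 95% interval from -0.33 to 0.38, adjusted p = 0.915 from limma), and it was -0.17 after median-ratio scaling (adjusted p = 0.444). Psph shares 452 bases with Cct6a on the opposite strand, a chaperonin gene with a mean FPKM of 29.2 in nAAC and 25.0 in sham mice, and whether the counting used strand is not given in the sources used here, so reads of the shared stretch cannot be assigned with certainty.

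Of the mitochondrial one-carbon enzymes, Mthfd2 had the largest log2 FC of the set and Shmt2 did not pass the test. Shmt2 (ENSMUSG00000025403, GRCm38 chr10:127517123-127522444, minus strand) was the more abundant, with an FPKM of 12.2, 13.9, 17.3, 14.2 and 12.0 in nAAC mice and of 12.5, 8.15, 8.68, 12.6 and 13.8 in sham mice. The groups overlapped, since sham replicates 1, 4 and 5 lay among the nAAC mice. Its log2 FC was 0.31 (SE 0.16, 95% interval from -0.03 to 0.66, adjusted p = 0.147 from limma), close to the median of all genes, and 0.06 after median-ratio scaling (adjusted p = 0.822). On TPM, a deposited unit in which each library sums to a fixed total, Shmt2 passed narrowly with a log2 FC of 0.48 (adjusted p = 0.0486). On that unit 8 of 9 genes of the set that passed the filter were higher, beside 40.9% of all genes, and 5 were DEGs, beside 7.98%.

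Mthfd2 (ENSMUSG00000005667, GRCm38 chr6:83305691-83325908, minus strand) had an FPKM of 3.47, 4.92, 6.68, 3.48 and 4.63 in nAAC mice and of 0.536, 0.839, 0.453, 0.71 and 0.722 in sham mice. Every nAAC mouse was far above every sham mouse, and no sham mouse reached an FPKM of 1. The means were 4.64 ± 1.32 and 0.652 ± 0.155 (SD, n = 5 each), a ratio of means of 7.11. The log2 FC was 1.75 (SE 0.15, adjusted p = 3.04e-06 from limma) and 1.58 after median-ratio scaling (adjusted p = 1.08e-05). Coverage of the gene was 9.24 to 20.6 reads per base in nAAC and 1.12 to 2.40 in sham mice.

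The related folate enzymes set this change in context, by ratios of FPKM + 0.1 within a mouse, in which the scaling of a library enters only through the added 0.1. Mthfd2l, the gene of a mitochondrial enzyme with the same activities, had means of 3.31 ± 0.755 and 3.52 ± 0.652 (SD, n = 5 each) and a log2 FC of -0.08 (adjusted p = 0.713 from limma). The median ratio of Mthfd2 to Mthfd2l was 1.24 in nAAC mice (0.932 to 2.82) and 0.216 in sham mice (0.138 to 0.272). Mthfd2l was thus the higher of the pair in every sham mouse, while Mthfd2 was the higher in 4 of 5 nAAC mice. The mean log2 ratio rose by 2.74 (two-sided exact permutation p = 0.00794, 0.0159 after Benjamini-Hochberg adjustment over 6 ratios). Against Mthfd1, the cytosolic enzyme, the log2 ratio rose by 2.30 with the same exact p and the same adjusted value, and the median ratio was 0.671 in nAAC and 0.137 in sham mice. With 1 added in place of 0.1 these differences were smaller, 1.82 and 1.45, with the same exact permutation p of 0.00794. Shmt1, the cytosolic counterpart of Shmt2, was higher in nAAC mice by a log2 FC of 0.43 (SE 0.13, adjusted p = 0.0214 from limma), a call lost after median-ratio scaling (0.24, adjusted p = 0.12). The ratio of Shmt2 to Shmt1 overlapped between groups, with a difference in log2 ratio of -0.27 (exact permutation p = 0.0556, adjusted 0.0556), and -0.12 with 1 added (exact permutation p = 0.325).

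**Figure D2:**
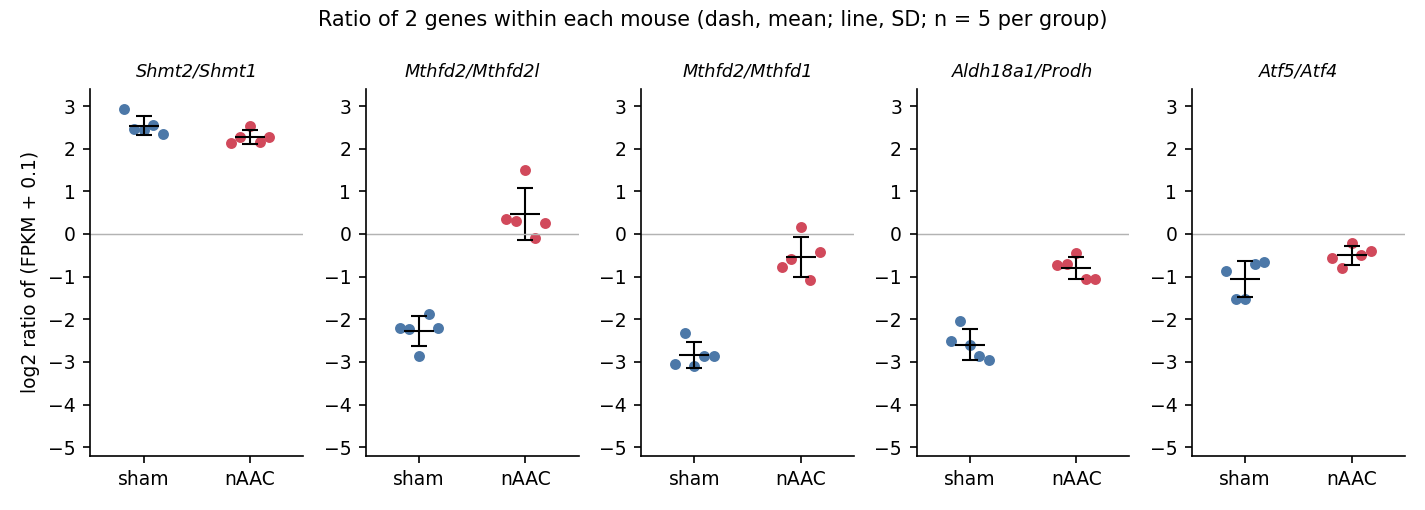
Ratio of each of 5 gene pairs within a mouse, as log2 of (FPKM + 0.1) over (FPKM + 0.1), in 5 sham and 5 nAAC mice. Points are mice, dashes means and lines the SD. The groups do not overlap for Mthfd2/Mthfd2l, Mthfd2/Mthfd1 and Aldh18a1/Prodh, and they overlap for Shmt2/Shmt1 and Atf5/Atf4.

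Both genes of proline synthesis separated the groups, Aldh18a1 evenly and Pycr1 unevenly. Aldh18a1 (ENSMUSG00000025007, GRCm38 chr19:40550257-40588463, minus strand), which makes the proline precursor from glutamate, had an FPKM of 3.76, 4.95, 4.38, 3.86 and 3.91 in nAAC mice and of 1.71, 1.42, 1.15, 1.28 and 1.39 in sham mice. It had the smallest spread relative to the mean of the set, with a coefficient of variation of 11.9% in nAAC and 15.0% in sham mice, means of 4.17 ± 0.497 and 1.39 ± 0.208 (SD, n = 5 each) and a ratio of means of 3.0. The log2 FC was 1.11 (SE 0.11, adjusted p = 7.12e-06 from limma), and it was 0.92 after median-ratio scaling (adjusted p = 7.33e-05), below the threshold for a DEG. Aldh18a1 shares 522 bases with Gm15801 on the same strand, a gene model with a mean FPKM of 6.58 in nAAC and 4.32 in sham mice, so part of its signal could be assigned to either.

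Pycr1 (ENSMUSG00000025140, GRCm38 chr11:120635712-120643769, minus strand), whose promoter is printed above, had an FPKM of 1.59, 1.70, 0.429, 0.516 and 1.62 in nAAC mice and of 0.211, 0.326, 0.079, 0.191 and 0.399 in sham mice. The nAAC mice fell apart into replicates 1, 2 and 5, near 1.6, and replicates 3 and 4, just above the highest sham mouse. The means were 1.17 ± 0.639 and 0.241 ± 0.124 (SD, n = 5 each), and the exact permutation test gave p = 0.00794. Pycr1 was below the filter, with 0.307 to 0.955 reads per base in sham mice. In the fit with no filter its log2 FC was 0.76 (SE 0.20, adjusted p = 0.0342 from limma). After median-ratio scaling the difference of its group means of log2(FPKM + 1) was 0.67.

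Prodh, which starts proline breakdown, had means of 7.34 ± 1.10 in nAAC and 9.07 ± 2.13 in sham mice (SD, n = 5 each) and a log2 FC of -0.25 (adjusted p = 0.235 from limma), which passed as lower after median-ratio scaling (-0.50, adjusted p = 0.0139). The ratio of Aldh18a1 to Prodh did not overlap, with medians of 0.602 and 0.164, and its log2 rose by 1.80 (exact permutation p = 0.00794, adjusted 0.0159). In all 10 mice Prodh remained the higher of that pair.

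Asns (ENSMUSG00000029752, GRCm38 chr6:7675169-7693254, minus strand), the asparagine synthetase gene whose promoter is printed above, had an FPKM of 2.07, 2.17, 3.37, 1.74 and 2.12 in nAAC mice and of 0.728, 0.642, 0.503, 0.810 and 0.677 in sham mice. The sham mice were tightly grouped and all below 1, and nAAC replicate 3 was the highest. The means were 2.30 ± 0.623 and 0.672 ± 0.114 (SD, n = 5 each), a ratio of means of 3.42. The log2 FC was 0.96 (SE 0.13, adjusted p = 0.000107 from limma), just below the threshold for a DEG, and 0.81 after median-ratio scaling (adjusted p = 0.000646). It passed the threshold for a DEG with a pseudocount of 0.1 (1.61), on TPM (1.25) and without nAAC replicate 4 (1.02).

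**Figure D3:**
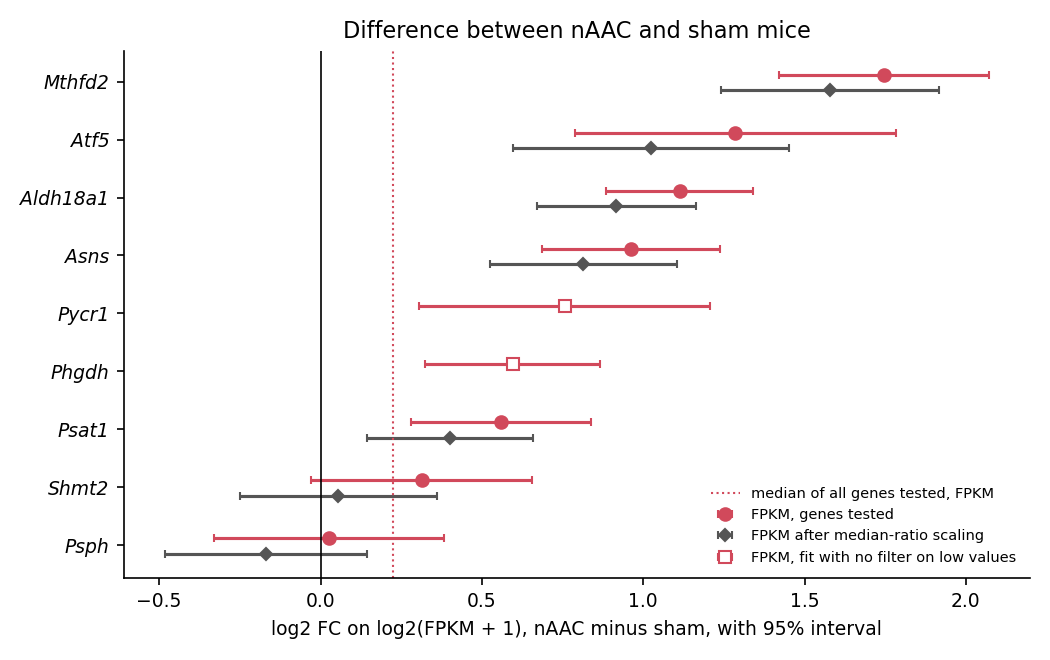
Log2 FC between nAAC and sham mice on log2(FPKM + 1), with 95% intervals from limma. Circles are genes tested on FPKM, diamonds the same genes after median-ratio scaling, open squares the genes below the filter in the fit without one, and the dotted line is the median of all genes tested, 0.22. Fgf21 is not drawn. The intervals of Shmt2 and Psph include 0 on both scales, and those of the other 5 tested genes lie above 0 on both.

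Atf5 (ENSMUSG00000038539, GRCm38 chr7:44812256-44816658, minus strand) had the highest mean FPKM of the set. In sham mice that mean, 11.4, was close to the 11.2 of Shmt2. Its FPKM was 19.4, 24.7, 38.3, 31.1 and 29.8 in nAAC mice and 10.02, 7.32, 8.08, 16.1 and 15.6 in sham mice. The groups did not overlap, and sham replicates 4 and 5 were well above the other sham mice. The means were 28.7 ± 7.08 and 11.4 ± 4.17 (SD, n = 5 each), a ratio of means of 2.51. The log2 FC was 1.29 (SE 0.23, adjusted p = 0.00106 from limma) and 1.02 after median-ratio scaling (adjusted p = 0.00203), and with Xist as a covariate it was 0.98 (adjusted p = 0.0164), below the threshold for a DEG. Atf5 shares 571 bases with Nup62, a nuclear pore gene on the opposite strand with a mean FPKM of 7.13 in nAAC and 4.73 in sham mice.

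Atf4, whose protein is controlled mainly through translation, was also higher at the transcript level, with means of 39.9 ± 6.40 and 22.8 ± 3.08 (SD, n = 5 each) and a log2 FC of 0.77 (SE 0.15, adjusted p = 0.00148 from limma). The ratio of Atf5 to Atf4 had a median of 0.708 in nAAC and 0.545 in sham mice. Its log2 was higher by 0.56 in nAAC mice (exact permutation p = 0.0317, adjusted 0.0476), and the groups overlapped.

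Fgf21 (ENSMUSG00000030827, GRCm38 chr7:45613886-45615490, minus strand) was listed at 0 in 8 of 10 mice. The other values were an FPKM of 0.0437 in nAAC replicate 4 and 0.115 in sham replicate 4, so no difference was detectable at this depth and no fold is given. Klb, the co-receptor of FGF21, did not exceed an FPKM of 0.0503 in any mouse. Fgfr1, a receptor for many FGFs and the main partner of KLB, had means of 15.1 ± 1.60 in nAAC and 5.91 ± 0.909 in sham mice (SD, n = 5 each) and differed by a log2 FC of 1.23 (SE 0.12, adjusted p = 9.69e-06 from limma). Fgfr3 was also higher (0.61, adjusted p = 0.00631), and the other 4 genes of the receptor list were below the filter. After median-ratio scaling Fgfr1 and Fgfr3 were still called higher, with log2 FCs of 0.98 and 0.40.

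The genes of the set did not vary together in a single pattern among mice of one group. Over the 10 mice and 21 pairs of tested genes, the correlation of deviations from the group means was highest for Psph with Atf5 (0.85), Mthfd2 with Asns (0.85) and Shmt2 with Atf5 (0.84), and it was near 0 for Psat1 with Mthfd2 (0.0037) and Psat1 with Asns (-0.061). All values come from the same 10 libraries, so shared differences in library composition enter each correlation. In nAAC replicate 3, Shmt2, Mthfd2, Asns and Atf5 were the highest of the group while Psat1 and Pycr1 were the lowest. Among sham mice replicate 3 was the lowest for 6 of the 10 genes, and replicates 4 and 5 were the highest for 4 each. Leaving out any 1 mouse, sham replicate 4 included, left 5 genes higher and Psat1, Mthfd2, Aldh18a1, Asns and Atf5 above 0, with log2 FCs of Psat1 from 0.46 to 0.63 and of Mthfd2 from 1.63 to 1.82.

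By Pearson correlation of log2(FPKM + 1) over the 10 mice, in which the group difference enters, the genes most like Mthfd2 were Gm47985 (0.991), 4833412C05Rik (0.990) and Gm49808 (0.987), gene models with sham means of 0.299, 0.00924 and 0.0126. Those most like Atf5 were Pofut2 (0.992), an enzyme of protein fucosylation, Hyal2 (0.991), a hyaluronidase, and Kifc3 (0.986), a kinesin. Those most like Aldh18a1 were Traf3 (0.988), a signalling adaptor, 6530402F18Rik (0.987) and Gm11382 (0.987).

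The surrounding pathways were described by 9 lists holding 120 genes besides the set, of which 98 were tested. Of these 34 were higher and 4 lower, beside 27.1% and 4.6% of all genes tested. After median-ratio scaling 18 were higher and 13 lower, beside 13.2% and 12.1% of all genes. Most of the excess of increases over decreases thus moved with the scaling, as it did over all genes. The same shares stand beside the counts of each list below. Among serine and glycine genes other than the set, 4 of 8 tested were higher and 1 was lower, with a median log2 FC of 0.32. Slc1a5, a plasma membrane carrier of neutral amino acids, rose from a mean FPKM of 4.74 ± 0.973 to 12.8 ± 2.20 (SD, n = 5 each), a log2 FC of 1.27 (SE 0.14, adjusted p = 2.80e-05 from limma), and it was the only one of the 4 called after scaling. Sdsl, a serine dehydratase-like gene, had a log2 FC of 0.62 (adjusted p = 0.0160). Dld, a shared subunit of the glycine cleavage system and the pyruvate dehydrogenase complex, was lower by a log2 FC of -0.51 (adjusted p = 0.0133). It was also the only gene of this list called lower after median-ratio scaling, at -0.79.

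In the folate cycle 3 of 14 tested genes besides Mthfd2 were higher and 1 was lower, with a median log2 FC of 0.16. Mtr, methionine synthase, which joins the folate and methionine cycles, fell from a mean FPKM of 15.1 ± 2.84 in sham to 4.21 ± 1.23 in nAAC mice (SD, n = 5 each), with a log2 FC of -1.64 (SE 0.18, adjusted p = 2.19e-05 from limma), and -1.89 after median-ratio scaling. Atic, of the last steps of purine synthesis, was higher by 0.63 (SE 0.11, adjusted p = 0.000764) and was the only higher gene of this list after scaling. Fpgs, which adds glutamates to folate, had a log2 FC of 0.53 (adjusted p = 0.0342). None of 5 tested genes of methionine and transsulfuration passed the test in either direction, and their median log2 FC was 0.09. After median-ratio scaling 1 was lower and the median was -0.18.

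Of 9 tested genes of proline, ornithine and glutamate metabolism besides the set, Glul alone was higher and none was lower. Glul, glutamine synthetase, had means of 183 ± 20.1 and 84.5 ± 24.6 (SD, n = 5 each) and a log2 FC of 1.14 (SE 0.18, adjusted p = 0.000427 from limma). Of 6 tested genes of asparagine breakdown and aminotransferases besides Asns, none was higher and Gpt2, the mitochondrial alanine aminotransferase, was lower, with means of 3.78 ± 1.03 and 8.54 ± 1.27 and a log2 FC of -1.01 (SE 0.15, adjusted p = 0.000269). The median log2 FC was 0.13 for the first list and -0.23 for the second, on either side of 0. After median-ratio scaling 1 gene was higher and 2 were lower in the first list, with a median of -0.11, and none was higher and 3 were lower in the second, with a median of -0.51.

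In the integrated stress response list 9 of 24 tested genes besides the set were higher and none was lower, with a median log2 FC of 0.29, close to that of all genes. The 4 with the largest changes were Nupr1 (2.32, adjusted p = 1.06e-05 from limma), a stress-induced chromatin protein, Gdf15 (2.05, adjusted p = 1.72e-05), a secreted stress hormone, Atf3 (1.37, adjusted p = 0.000134), a stress transcription factor, and Ppp1r15a (1.21, adjusted p = 0.000260), a subunit that restores translation. Gdf15 rose from a mean FPKM of 0.199 ± 0.0987 to 4.30 ± 2.33 (SD, n = 5 each), whereas Fgf21 was listed at 0 in 4 of the 5 nAAC mice. Gdf15 and Atf3 had sham means below an FPKM of 1 (0.199 and 0.882) and passed the filter only through their nAAC values. After median-ratio scaling 9 genes of this list were again higher and 1 was lower, beside 13.2% and 12.1% of all genes. Trib3 and Chac1, known targets of this response that are named here after their values were seen, had log2 FCs of 0.21 (adjusted p = 0.252) and -0.17 (adjusted p = 0.466). Ddit3, of the same list and also named after its values were seen, was higher by 0.99 (adjusted p = 0.00161 from limma). After median-ratio scaling its log2 FC was 0.73 (adjusted p = 0.00666).

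Cytosolic tRNA synthetases, another group that ATF4 is known to raise, were higher in 13 of 20 cases with none lower. Beside this, 27.1% of all genes tested were higher and 4.6% lower. The median log2 FC of the synthetases was 0.42. Aars had the largest log2 FC, 0.71 (adjusted p = 0.00100 from limma), followed by Rars at 0.69 (adjusted p = 0.000815), Yars at 0.64 and Lars at 0.54, and none of the 20 was a DEG. After median-ratio scaling 4 of the 20 were higher and 1 lower, beside 13.2% and 12.1% of all genes, so most of these calls were lost with the scaling. Mitochondrial chaperones and proteases had a median log2 FC of 0.00, with Lonp1 (0.62, adjusted p = 0.00690) and Afg3l2 (0.38, adjusted p = 0.0410) higher and Clpx (-0.99, adjusted p = 5.48e-05) lower of 10 tested. Of these only Clpx, an unfoldase of the matrix, kept its call after scaling, at -1.26, while 2 further genes became lower and the median was -0.26.

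**Figure D4:**
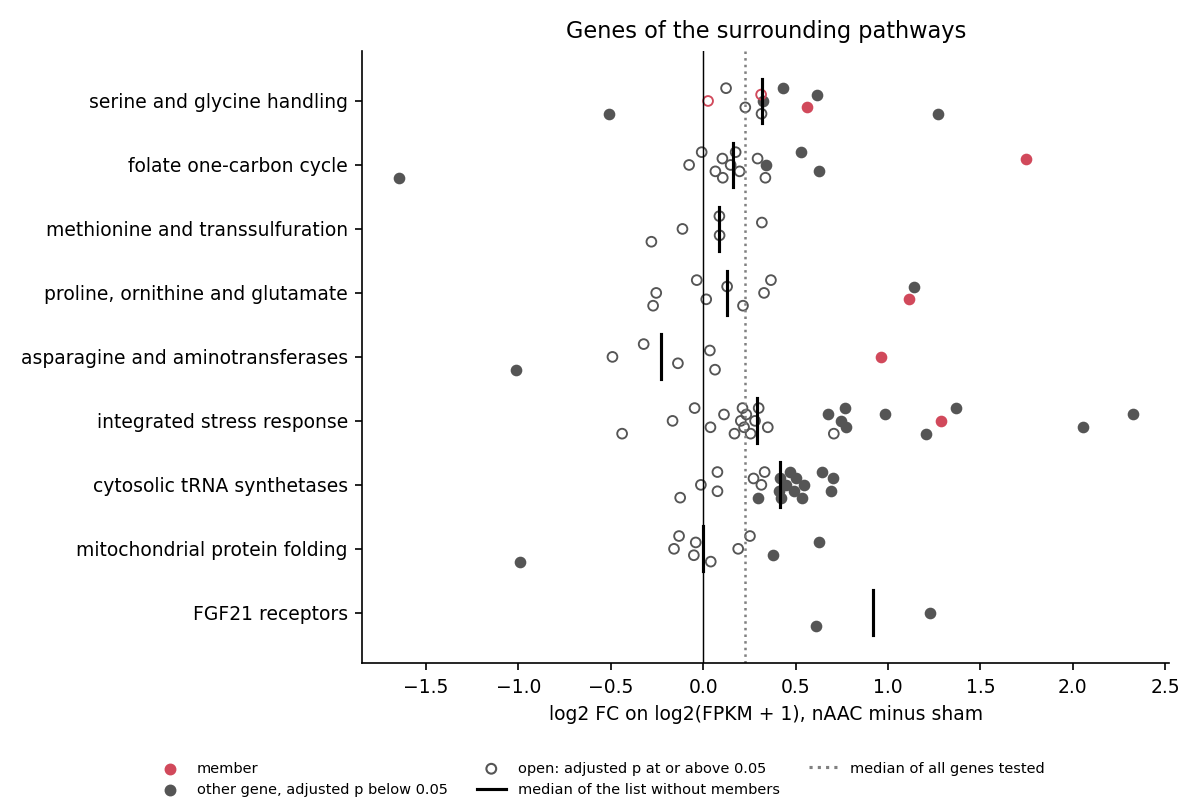
Log2 FC of every tested gene of 9 pathway lists on log2(FPKM + 1), nAAC minus sham. Red points are genes of the set and grey points other genes, filled at an adjusted p below 0.05 and open otherwise. Short black lines are list medians without the set and the dotted line is the median of all genes, 0.22. Mthfd2 stands apart to the right of the other folate genes, and Mtr to their left.

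Markers of some cell types moved beside these results. Their counts stand beside 27.1% of all genes tested that were higher and 4.6% that were lower, and they were not repeated after median-ratio scaling. For fibroblasts 7 of 10 markers were higher and none lower, and their summed FPKM was 1113 to 1752 in nAAC and 716 to 955 in sham mice, without overlap. For macrophages and leukocytes 3 of 8 tested markers were higher, for mural cells 5 of 8 and for endothelial cells 2 of 10. Of 10 cardiomyocyte markers, which were abundant in every mouse, 3 were higher and 2 lower, and their sums overlapped (15038 to 22937 in nAAC and 16500 to 28385 in sham mice). Of 10 proliferation markers only Pcna was above the filter, and it did not pass the test (log2 FC -0.09, adjusted p = 0.683 from limma). The summed proliferation markers overlapped, from 15.1 to 22.9 in nAAC and from 14.5 to 25.5 in sham mice. Pcna makes up most of that sum, so it says little of the other markers. No T cell marker passed the filter. None of 5 tested erythroid markers passed the test. Of 7 adipocyte markers Cidea alone was above the filter, and it was higher (log2 FC 0.97, adjusted p = 0.0178 from limma). The adipocyte markers below the filter mostly lay the other way. Adipoq was listed at 0 in every nAAC mouse and at 0.0786 to 0.308 in sham mice. Plin1, Cidec, Lep and Cfd also had lower means in nAAC mice, and only Ucp1 had a higher one. Of 4 tested atrial markers Stard10 was lower (-1.18, adjusted p = 0.0161) and none was higher, and their summed FPKM ran widely, over 3.76 to 234 in nAAC and 12.8 to 53.6 in sham mice. The part of changed cell shares in the values of Mthfd2, Aldh18a1, Asns, Atf5 and Psat1 was not tested.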

How the data were processed

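LV libraries of 5 nAAC and 5 sham mice were compared, grouped from the sample labels. The authors deposited 1 gene table per mouse in the layout of StringTie's abundance output, with coverage (mean reads per base), FPKM and TPM. The deposited FPKM are normalized by the authors for transcript length and depth, and the deposited TPM are rescaled to a fixed sum per library. The submitters' notes name mm10, and 99.4% of shared genes had the coordinates of GENCODE M21 of GRCm38. The aligner, quantifier version and use of strand are not given in the sources used here. Rows sharing a gene ID were summed. Depth was estimated from the commonest quotient of FPKM and coverage, and reads cannot be recovered, so no count model was used.

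Genes whose FPKM averaged 1 or more were compared by limma 3.58.1 (R 4.3.3) on log2(FPKM + 1) with a trend and Benjamini-Hochberg adjustment over 11867 genes. On simulated data of that size, 191 of 200 genes changed by a log2 FC of 1.5 were recovered with 0 false calls. The changed genes were drawn only from those of higher mean level, and the noise was independent between genes. Asns, Psat1, Psph, Mthfd2 and Aldh18a1 lie below that level, so this recovery does not cover them. Single genes and ratios (FPKM + 0.1) were compared by two-sided exact permutation tests, for which the smallest p is 0.0079. Nothing states that mice came from separate litters, so p-values measure the spread between these samples. The genes, lists, thresholds and tests were chosen with earlier results of these data known. All 10 genes of the set are named, and of each list the genes of the ratios and up to 4 with the largest absolute log2 FC among those with an adjusted p below 0.05. Of 6 ratios computed and adjusted together 5 are reported, and 1 list gene that the rule names is not reported here. Likeness is the highest correlation for the 3 genes of the set with the largest change. Alternatives were other scalings, TPM, removal of mitochondrial genes, other pseudocounts and filters, a replicate block, Xist as a covariate and leaving out each mouse. Analyses used Python 3.11.15, pandas 2.3.3, scipy 1.17.1 and matplotlib 3.10.9.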

Additional observations from a re-analysis of the deposited data

Results flagged for a closer look

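For each gene of the set and each ratio reported, the highest and lowest mouse of a group of 5 were compared with the rest by Dixon's ratio, the gap to the nearest mouse over the range of the group, with a critical value of 0.71. Of 30 groups examined, 3 exceeded it, where chance gives about 1.5. Fgf21 did so in nAAC replicate 4 and in sham replicate 4, each with a ratio of 1, since every other mouse of its group was listed at 0. The log2 ratio of Mthfd2 to Mthfd2l did so in nAAC replicate 3, with a ratio of 0.72. That mouse had the highest Mthfd2 of its group, at an FPKM of 6.68, and leaving out any 1 mouse kept the difference in log2 ratio between groups at 2.48 or above.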

How the results depend on the processing

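Of the 5 genes of the set called higher, Mthfd2, Aldh18a1, Asns and Atf5 kept their call under all 9 alternatives other than leaving out mice, and Psat1 under 8. Genes of the set called higher numbered 8 and DEGs of the set 5 on TPM, where 9 of the set passed the filter. Over all genes, DEGs were 371 higher and 207 lower after median-ratio scaling, 377 and 200 after upper-quartile scaling, 952 and 169 with a pseudocount of 0.1, and 1034 higher on TPM. Psph turned to -0.17 and -0.16 under these scalings, to -0.13 with Xist as a covariate, and below 0 without nAAC replicate 5, sham replicate 2 or sham replicate 3 (range over mice left out from -0.071 to 0.15), none of which passed the test.

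Genes of the lists besides the set called lower were 13 after median-ratio and 14 after upper-quartile scaling. Those called higher under these scalings were 1 and 1 for serine and glycine, 1 and 1 for folate, 4 and 4 for tRNA synthetases and 0 and 1 for mitochondrial protein folding. With Xist as a covariate they were 1, 1, 6 and 0, and 1 for the FGF21 receptors. On TPM they were 7 for folate, 1 for methionine, 2 for proline and 17 for the integrated stress response. With lower or no filters 1 asparagine list gene, tested only there, was higher. The cause of these shifts was not tested.

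Leaving out each mouse in turn gave 546 to 683 DEGs higher, 99 to 123 lower, 5 genes of the set higher and 3 to 4 of them DEGs (4 without nAAC replicate 4, with Asns). List counts higher ran from 2 to 4 for serine and glycine (2 without nAAC replicate 4, sham replicate 1 or sham replicate 3), 1 to 4 for folate (1 without nAAC replicates 2, 4 or 5 or sham replicates 2 or 3), 0 to 1 for methionine and 1 to 3 for proline (the highest of both without sham replicate 4), 8 to 14 for tRNA synthetases (8 without nAAC replicate 4) and 1 to 2 for mitochondrial folding, which was 2 only without nAAC replicate 1, sham replicate 4 or sham replicate 5. The log2 ratio difference ran from -0.33 to -0.17 for Shmt2 to Shmt1, with an unadjusted exact p of 0.0159 or more (below 0.05 without nAAC replicate 3 or sham replicate 5), and from 0.44 to 0.66 for Atf5 to Atf4 (up to 0.0635, above 0.05 without nAAC replicates 3, 4 or 5 or sham replicates 1, 2 or 3).

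With the replicate number as a block, the mean paired differences equal the group differences by construction, 2.74 for Mthfd2 to Mthfd2l, 2.30 for Mthfd2 to Mthfd1, 1.80 for Aldh18a1 to Prodh and 0.56 for Atf5 to Atf4, at an exact p of 0.0625, the smallest that 5 pairs allow. Under the block 1 gene of mitochondrial protein folding was called higher. The numbers did not pair the mice, since the correlation of deviations at the same number ran from -0.32 to 0.19. Values below an FPKM of 1 rest on few reads, so Phgdh, Pycr1 and Fgf21 are the least certain of the set, and Phgdh and Pycr1 had no fit with the block or the covariate.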

Other observations

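Of 22 genes of the lists besides the set that fell below the filter on low values, 5 lay wholly above in nAAC mice and 1 wholly below, beside 10.3% and 1.97% of all genes with a value. They were picked here after their values were seen. Mthfd1l, the mitochondrial enzyme that releases formate downstream of MTHFD2, had an FPKM of 1.25 to 1.57 in nAAC mice and of 0.334 to 0.584 in sham mice. Aldh1l2, a mitochondrial enzyme that instead oxidizes the same folate intermediate to carbon dioxide, lay the other way, from 0.281 to 0.621 in nAAC and from 0.624 to 1.96 in sham mice, a gap that is narrow at the edge. Slc1a4, a carrier of serine and other small neutral amino acids, had values of 1.14 to 1.96 in nAAC and 0.216 to 0.592 in sham mice. Bcat1, the cytosolic branched-chain aminotransferase, had 0.259 to 0.827 in nAAC and 0.121 to 0.198 in sham mice. Fgfr2, an FGF receptor, had 0.207 to 0.405 in nAAC and 0.0343 to 0.163 in sham mice, and Slc7a11, the cystine carrier, did not exceed 0.0404 in any mouse. These genes were not part of the main test, and the values are given as a description.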
